A study of Mus musculus with 39 samples.

Results

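The glycosyltransferases of O- and N-glycan chains were examined in parathyroid glands, the endocrine glands of the neck that secrete parathyroid hormone, from mice with and without a parathyroid deletion of the clock gene Bmal1 (gene symbol Arntl). Members were taken by name: protein-coding genes whose symbols begin with Galnt, Gcnt, Mgat, B3galt, B3gnt, B4galt, Fut, St3gal, St6gal or St8sia, with a digit required after Gcnt, Mgat and Fut. This gave 84 genes of the 27179 gene IDs in the count table. The family was chosen by the levels of Gcnt4 and Galntl6, which were higher and lower in knockout glands, so the values of these 2 genes by genotype are given below as a description, with no test, while the other members came in by name alone.

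Knockout mice (KO) had the genotype PTHcre;Bmal1 flox/flox, with Cre recombinase under a human parathyroid hormone promoter and loxP sites around exon 8 of both Bmal1 copies. Their littermates with Bmal1 flox/flox and no Cre were the controls (WT), so that both groups carried the floxed alleles and the Cre transgene came with KO only. The floxed line was B6.129S4(Cg)-Arntltm1Weit/J and the Cre line 129;FVB-Tg(PTH-cre)4167Slib/J. All mice were males of 11 weeks, and each of the 39 samples was total RNA of glands pooled from 2 mice. There were 18 KO and 21 WT samples, numbering 3 KO and 3 WT at zeitgeber time (ZT, hours from lights on) 0, 3 KO and 4 WT at ZT4, 3 KO and 2 WT at ZT8, 2 KO and 3 WT at ZT12, 3 KO and 5 WT at ZT16, and 4 KO and 4 WT at ZT20. Times follow the sample titles. For 3 samples titled ZT16 (KO replicate 1, WT replicates 4 and 5) another label gave ZT 20.

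Glycan chains are built one sugar at a time in the Golgi apparatus by enzymes that each make a particular linkage. Polypeptide GalNAc-transferases (Galnt genes) start mucin-type O-glycans on serine or threonine, and the core is then branched by β1,6-GlcNAc-transferases (some of the Gcnt genes). On N-glycans, which reach the Golgi preassembled, the Mgat enzymes set the number of branches, and in both kinds of chain galactosyl-, GlcNAc-, fucosyl- and sialyltransferases lengthen and cap the ends. BMAL1 drives the circadian clock by binding E-boxes in promoters together with its partner CLOCK.

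The libraries held 38111766 to 68938704 counts (median 55836787), and 16883 to 20184 genes were detected in each. Levels are in CPM, counts scaled to a library size that was adjusted between libraries by the trimmed mean of M-values, and no 2 replicates of a group agreed within sampling noise. Parathyroid markers were abundant in every library: Pth ranged from 61680 to 227100 CPM, and the parathyroid regulator Gcm2 from 275 to 509 CPM. The summed level of 8 thyroid follicle markers ranged from 4.57 to 33860 CPM in KO and from 2.18 to 61670 CPM in WT libraries, and that of 15 lymphoid markers from 8.96 to 602 CPM in KO and from 7.11 to 1631 CPM in WT libraries. Of 11 marker lists none passed between genotypes in a two-sided permutation test of the mean log2 CPM (lowest p = 0.224, adjusted p = 0.799). In whole glands, fewer cells of a type and less RNA per cell cannot be told apart. The targeted gene, Arntl, averaged 16.8 ± 6.26 CPM in KO and 22.6 ± 12.3 CPM in WT (SD, n = 18 and 21), a log2 fold change of -0.25 ± 0.19 (SE) that did not pass the test (edgeR quasi-likelihood, adjusted p = 0.465). Those counts include exons outside the deleted one.

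Promoters are among the places where the clock factors named above can bind. The bases before an annotated start of Gcnt4 and of Galntl6 are therefore shown, in lower case, from RefSeq on GRCm38.p6. They run 5′ to 3′ on the gene's strand. The RefSeq table holds 2 starts for Gcnt4 and 1 for Galntl6, and the 250 bases before the first Gcnt4 start and before the Galntl6 start are given. That Galntl6 start lies inside the gene's span, whose 5′ end is at 58912531. The Galntl6 window therefore does not cover the bases before that end. A window of Galnt11, a member that was lower in KO, is shown as well, with its match to a core of the element bound by ROR and REV-ERB receptors in capitals. The table holds 2 starts for Galnt11: the window of the first, at the gene's 5′ end, held none of the motifs searched, and the one shown belongs to the second, inside the gene.
Gcnt4, chr13:96924094-96924343, plus strand: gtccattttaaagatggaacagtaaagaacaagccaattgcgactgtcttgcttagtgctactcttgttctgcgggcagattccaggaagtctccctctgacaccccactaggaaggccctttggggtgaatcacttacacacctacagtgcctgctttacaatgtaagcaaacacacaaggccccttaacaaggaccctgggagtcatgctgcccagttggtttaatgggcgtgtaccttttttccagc
Galntl6, chr8:58911628-58911877, minus strand: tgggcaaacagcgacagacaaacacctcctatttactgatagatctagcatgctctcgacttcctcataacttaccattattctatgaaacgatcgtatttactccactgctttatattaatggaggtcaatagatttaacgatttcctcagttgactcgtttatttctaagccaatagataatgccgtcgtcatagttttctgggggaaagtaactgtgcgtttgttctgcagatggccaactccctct
Galnt11, chr5:25246123-25246372, plus strand: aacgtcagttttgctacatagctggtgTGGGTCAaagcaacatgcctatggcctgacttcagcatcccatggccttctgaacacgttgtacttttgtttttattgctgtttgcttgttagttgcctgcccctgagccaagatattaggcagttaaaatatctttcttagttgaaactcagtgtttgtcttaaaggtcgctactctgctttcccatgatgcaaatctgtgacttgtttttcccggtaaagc
Windows of 300 bases (250 before and 50 after each start) were searched on both strands for the E-box CACGTG, the ROR element cores TAGGTCA and TGGGTCA, and the D-box TTANGTAA. Sites outside these windows and other forms of the motifs were not searched, so a window without a match leaves binding elsewhere untested. The table had 89 windows for 63 of the 84 members, and none for Fut9 and Fut10. An E-box was found in 6.74% of the members' windows and in 7.15% of all 32851 windows, the first ROR core in 1.12% and 2.61%, the second in 4.49% and 3.98%, and the D-box in 1.12% and 2.32%. Neither window of Gcnt4 and not the window of Galntl6 held any of the 4 motifs, nor did those of Fut4, Gcnt2 and Gcnt7. The E-box was in a window of B3galt2, B3galt5, B3gnt7, B3gntl1, Galnt9 and St6galnac3.

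The glands expressed members of every role, with a mean of at least 1 CPM for 57 of the 84. Levels between genes were compared as CPM per kb of exon, averaged over all 39 libraries. Exons of 34 members overlap those of other annotated genes, and how reads there were counted is not given. On the same strand, Gm20388 overlaps 3854 of the 4282 exon bases of Galnt2, and Gm28048 2449 of the 4180 of B3gnt2. The initiating enzymes with the highest level per length were Galnt2 (32.8 CPM per kb) and Galnt1 (15.3). Among N-glycan branching enzymes these were Mgat2 (27.1), which adds the GlcNAc that turns a hybrid into a complex chain, and Mgat4b (20.4), which adds a further branch. B4galt4 (15.6) and B4galt1 (9.72) led the β1,4-galactosyltransferases, and B3gnt2 (7.96), an extender of polylactosamine chains, and B3galt6 (7.44), which adds a galactose to the linker of proteoglycans, led the β1,3 group. Among capping enzymes, St6galnac6 (10.6) and St3gal3 (7.22) led the sialyltransferases, and Fut9 (7.57) led the fucosyltransferases. Next to Fut9, the order among fucosyltransferases differed by genotype: Fut4 was at 5.38, Fut8 at 4.35 and Fut10 at 3.69 CPM per kb in KO, against 3.64, 4.02 and 4.29 CPM per kb in WT. The β1,6-GlcNAc-transferase group was lower, with Gcnt4 at 3.94 and Gcnt2 at 2.15 CPM per kb in KO, against 0.964 and 1.48 CPM per kb in WT. At the other end, 6 members (Galntl5, Mgat4c, Mgat4d, Mgat4e, Mgat4f and St8sia3) had too few counts for the genotype test, and Mgat4d had 0 counts in all 39 libraries, which allows up to 0.00141 CPM over all of them (3 counts, counting error only).

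**Figure D1:**
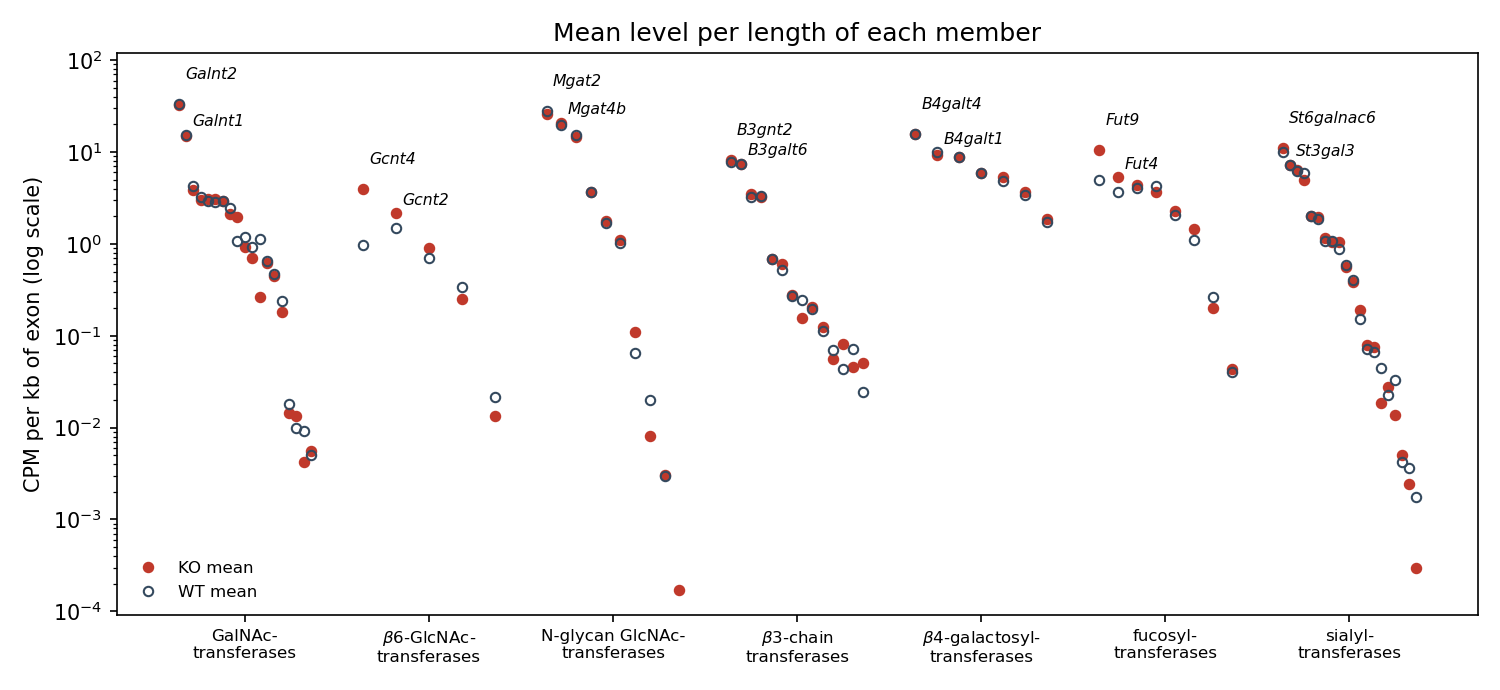
Mean level of each member in CPM per kb of exon (log axis), by role, with KO means as filled and WT means as open circles and members ordered by level within a role. The highest members of most roles have KO and WT circles on top of each other, whereas Gcnt4, Gcnt2, Fut9 and Fut4 have the KO circle above the WT circle; means of 0 are not drawn.

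Galnt2, the highest member, averaged 139 ± 12.5 CPM in KO and 142 ± 10.2 CPM in WT libraries (SD, n = 18 and 21; log2 fold change -0.02 ± 0.04, adjusted p = 0.755 by edgeR's quasi-likelihood test). Mgat2 averaged 67.8 ± 5.26 CPM in KO and 73.7 ± 12.2 CPM in WT (-0.11 ± 0.06, adjusted p = 0.267). B4galt4 averaged 50.1 ± 3.52 CPM in KO and 50.3 ± 5.90 CPM in WT (-0.01 ± 0.05, adjusted p = 0.927). None of these passed the test. Of the other members named for their level above, only Fut4, Gcnt2 and Fut10 passed, with Gcnt4 given without a test.

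Gcnt4 encodes a β1,6-GlcNAc-transferase that makes the core 2 branch of O-glycans; it lies on chromosome 13 (96924344 to 96950914, plus strand). Its level was 16.6, 4.74 and 17.8 CPM in KO against 2.72, 3.85 and 2.82 CPM in WT libraries at ZT0. At ZT4 it was 2.82, 29.7 and 20.7 CPM in KO against 10.2, 2.71, 4.44 and 2.43 CPM in WT, and at ZT8 it was 26.4, 5.27 and 36.1 CPM in KO against 3.99 and 1.13 CPM in WT. All KO libraries of ZT0 and ZT8 were above all WT libraries of the same time, whereas at ZT4 a single KO library was within the WT range. At ZT12 the values were 22.4 and 5.78 CPM in KO against 5.66, 3.42 and 1.47 CPM in WT. At ZT16 they were 16.8, 45.2 and 6.22 CPM in KO against 7.13, 4.55, 11.9, 5.54 and 9.30 CPM in WT, and at ZT20 they were 8.85, 8.55, 23.4 and 63.6 CPM in KO against 4.95, 5.98, 6.58 and 2.15 CPM in WT. The groups did not overlap at ZT12 (narrowly, 5.78 CPM in KO against 5.66 CPM in WT) and ZT20 either, and they overlapped at ZT16. KO libraries of the same time differed widely among themselves, while no WT library was above 11.9 CPM.

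Over all times Gcnt4 ranged from 2.82 CPM through a median of 17.3 to 63.6 CPM in KO, and from 1.13 CPM through a median of 4.44 to 11.9 CPM in WT. In 11 of the 18 KO libraries it was above the highest WT library. The means were 20.0 ± 16.0 CPM in KO and 4.90 ± 2.87 CPM in WT (SD), a log2 fold change of 2.11 ± 0.34 (SE), given without a test. The spread within the groups of a time, as the SD of log2 CPM, was 1.44 in KO and 0.78 in WT, above that of 98.2% of all genes with at least 1 CPM in KO and of 92.9% in WT. Among all genes tested, a difference of at least 1 log2 past the test's threshold was found upward in KO for 0.579% and downward for 0.354%. Exons of an annotated antisense gene, Gm48597, overlap 535 bases of Gcnt4, and whether the counting used strand is not given in the sources used here. Of 28 tested genes within 2 Mb of Gcnt4, 0 were called higher and 1 lower in KO, beside 3.58% and 4.11% of all genes.

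Galntl6 encodes a relative of the polypeptide GalNAc-transferases and lies on chromosome 8 (57772489 to 58912531, minus strand). Its level was 1.09, 2.04 and 3.89 CPM in KO against 4.66, 3.16 and 16.2 CPM in WT libraries at ZT0, and 5.24, 0.167 and 1.46 CPM in KO against 4.06, 6.99, 7.94 and 6.75 CPM in WT at ZT4. At ZT8 it was 0.423, 1.16 and 1.35 CPM in KO against 5.37 and 10.6 CPM in WT, and at ZT12 it was 2.02 and 3.48 CPM in KO against 15.8, 17.5 and 21.7 CPM in WT. The groups did not overlap at ZT8 and ZT12, and at ZT0 and ZT4 they overlapped through 1 KO library each. At ZT16 the values were 3.55, 1.63 and 0.931 CPM in KO against 4.72, 5.98, 10.9, 5.79 and 2.63 CPM in WT, and at ZT20 they were 1.45, 1.45, 1.19 and 2.83 CPM in KO against 6.39, 5.51, 6.20 and 6.11 CPM in WT. At ZT20 the groups did not overlap either, and the 4 highest WT libraries were the 3 of ZT12 and 1 of ZT0.

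Over all times Galntl6 ranged from 0.167 CPM through a median of 1.46 to 5.24 CPM in KO, and from 2.63 CPM through a median of 6.19 to 21.7 CPM in WT. In 13 of the 18 KO libraries it was below the lowest WT library, and 16 of the 21 WT libraries were above the highest KO library. The means were 1.96 ± 1.33 CPM in KO and 8.33 ± 5.20 CPM in WT (SD), a log2 fold change of -1.96 ± 0.29 (SE), given without a test. Exons of BC030500, on the opposite strand, overlap 330 bases of Galntl6, and BC030500 was also lower in KO (0.713 CPM in KO and 2.11 CPM in WT; log2 fold change -1.55 ± 0.33, adjusted p = 0.00205, edgeR). Mfap3l, a relative of a microfibril-associated protein gene that lies within 2 Mb of Galntl6, averaged 7.41 CPM in KO and 12.4 CPM in WT (-0.70 ± 0.08, adjusted p = 1.00e-07). Of the 12 tested genes in that window 1 was called higher (Hpgd) and 3 lower (BC030500, Mfap3l and Gm15881). Among all genes the shares were 3.58% higher and 4.11% lower. Galnt7, a member in the same window, was not called (0.02 ± 0.06, adjusted p = 0.893).

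**Figure D2:**
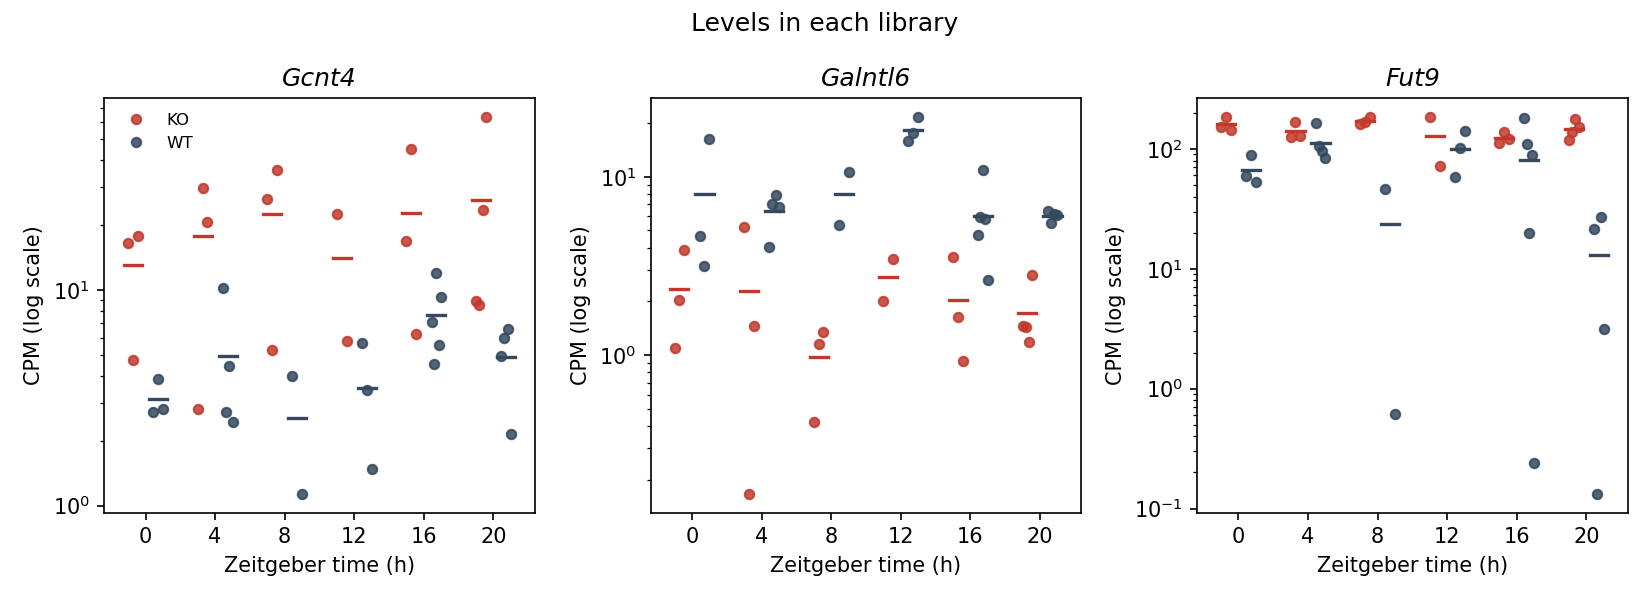
Levels of Gcnt4, Galntl6 and Fut9 in every library (CPM, log axis) by zeitgeber time, with KO (red) left of WT (dark blue) and a line at each group mean. Gcnt4 is above the WT libraries in 11 of 18 KO libraries and Galntl6 below them in 13; Fut9 is at 72.4 to 185 CPM in KO and at 0.133 to 182 CPM in WT.

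Genotype tests are reported for the 76 other members that passed the filter on low counts. Gcnt4 and Galntl6 stayed among the 18661 genes of the fit, but their results are not used as tests. KO glands had more mRNA of Fut4 and Gcnt2, and less of Fut10 and Galnt11. This is 2 members higher in KO, beside 3.58% of all 18661 genes tested, and 2 lower, beside 4.11%, or 7.69% in either direction, so that the share of members called was near that of all genes or below it. At an unadjusted p under 0.05 there were 22 of the 76 (28.9%), beside 21.1% of all genes. The median log2 fold change was 0.04 over the 76 members and 0.00098 over all genes tested, with 45 members positive and 31 negative, beside 50.3% of all genes positive. By role, the fucosyltransferases had 7 of 8 tested genes at an unadjusted p under 0.05 (6 of the 8 fold changes positive), the GalNAc-transferases 5 of 17, the β1,6-GlcNAc-transferases 2 of 4, the N-glycan GlcNAc-transferases 2 of 7, the β1,4-galactosyltransferases 2 of 7, the sialyltransferases 2 of 19 and the β1,3 group 2 of 14.

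**Figure D3:**
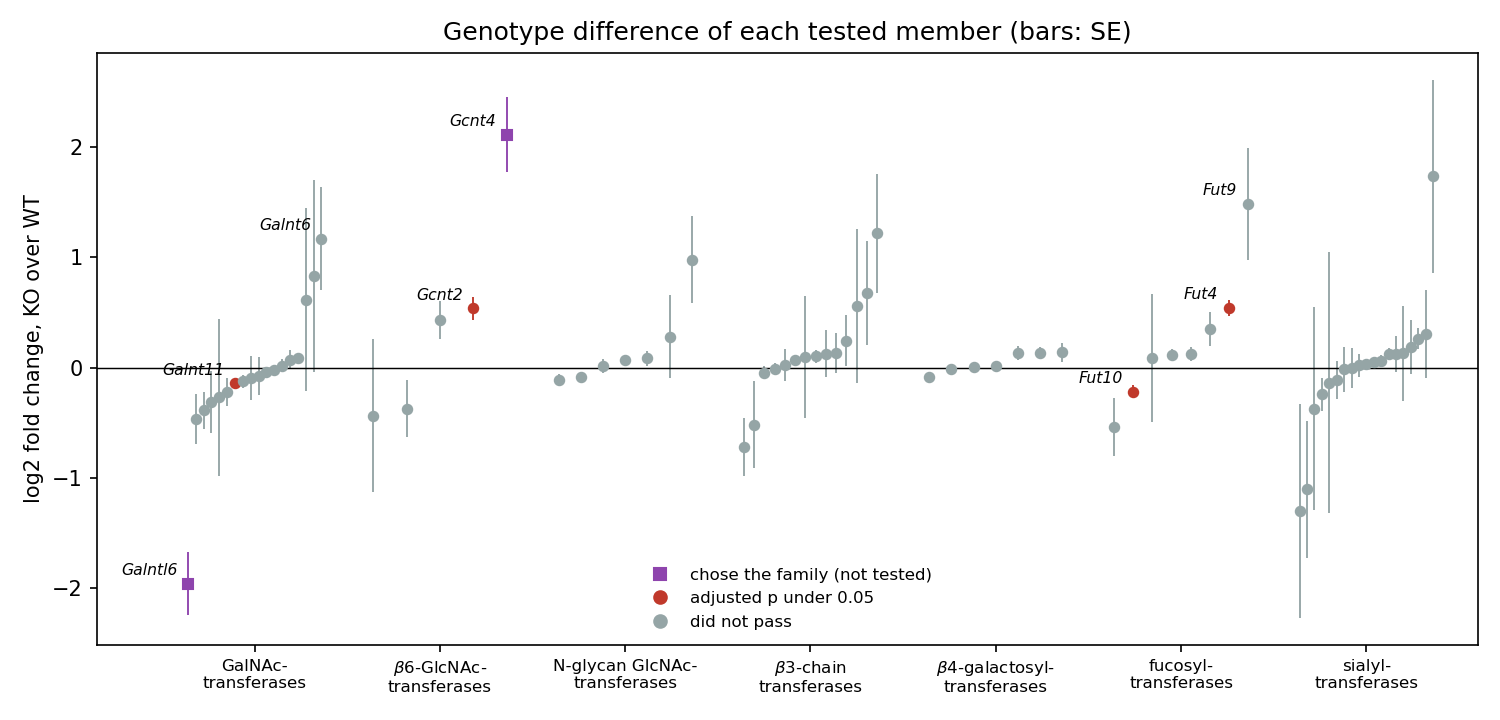
Log2 fold change (KO over WT, with SE) of each tested member by role, ordered within a role. Purple squares are Gcnt4 (2.11) and Galntl6 (-1.96), which chose the family and are shown without a test. The members past an adjusted p of 0.05 (red) are Fut4, Gcnt2, Fut10 and Galnt11, and the wide bars belong to members of low level.

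Fut4 encodes an α1,3-fucosyltransferase that makes the Lewis x structure on chain ends (chromosome 9, 14748459 to 14752122, minus strand). It ranged from 17.3 CPM through a median of 22.7 to 27.4 CPM in KO, and from 10.3 CPM through a median of 15.0 to 21.2 CPM in WT. All 18 KO libraries were above the WT median, 11 were above every WT library, and 18 of the 21 WT libraries were below every KO library. The means were 21.9 ± 3.28 CPM in KO and 14.8 ± 2.73 CPM in WT (SD; log2 fold change 0.54 ± 0.07, adjusted p = 3.85e-06, edgeR). The groups overlapped through 3 WT libraries, the highest of them 1 library of ZT4. At single times the log2 fold change of Fut4 lay between 0.37 (ZT0) and 0.87 (ZT12) and passed the test at none (lowest adjusted p = 0.0902, ZT12). Of 28 tested genes within 2 Mb, 5 were called higher and 1 lower, beside 3.58% and 4.11% of all genes. Among those higher was Piwil4, of the PIWI family that binds small RNAs, at 1.25 ± 0.17 (adjusted p = 5.34e-06).

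Gcnt2 encodes the β1,6-GlcNAc-transferase that branches polylactosamine into the I antigen (chromosome 13, 40859768 to 40960892, plus strand). It ranged from 9.62 CPM through a median of 14.5 to 20.0 CPM in KO, and from 7.42 CPM through a median of 9.81 to 16.3 CPM in WT. In 17 of 18 KO libraries it was above the WT median, and in 8 above every WT library. The means were 15.1 ± 3.09 CPM in KO and 10.4 ± 2.40 CPM in WT (SD; log2 fold change 0.54 ± 0.10, adjusted p = 6.00e-04, edgeR). Without the 12 libraries of highest lymphoid marker score (6 KO and 6 WT) it was 0.48, with an adjusted p of 0.0678. Exons of 2 annotated antisense genes overlap Gcnt2, by 482 and 295 bases.

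Fut10 encodes a distant member of the fucosyltransferase family (chromosome 8, 31187313 to 31265284, plus strand). It ranged from 13.9 CPM through a median of 18.3 to 22.3 CPM in KO, and from 17.5 CPM through a median of 21.2 to 28.0 CPM in WT. The groups overlapped widely: 7 of 18 KO libraries were below every WT library, and 7 of 21 WT libraries were above every KO library. The means were 18.5 ± 2.16 CPM in KO and 21.5 ± 2.92 CPM in WT (SD; log2 fold change -0.22 ± 0.06, adjusted p = 0.0210, edgeR), and without the 12 lymphoid-rich libraries -0.18 with an adjusted p of 0.282.

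Galnt11, an initiating GalNAc-transferase (chromosome 5, 25222872 to 25265918, plus strand), ranged from 20.6 CPM through a median of 26.8 to 30.4 CPM in KO, and from 23.2 CPM through a median of 29.2 to 34.4 CPM in WT. The groups overlapped widely, although 17 of 18 KO libraries were below the WT median. The means were 26.5 ± 2.25 CPM in KO and 29.1 ± 2.61 CPM in WT (SD; log2 fold change -0.14 ± 0.04, adjusted p = 0.0482, edgeR). The call was lost when any of 30 of the 39 libraries was left out, with adjusted p-values from 0.0192 to 0.106 over the 39 fits. Exons of E130116L18Rik, on the opposite strand, overlap 306 bases of Galnt11.

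**Figure D4:**
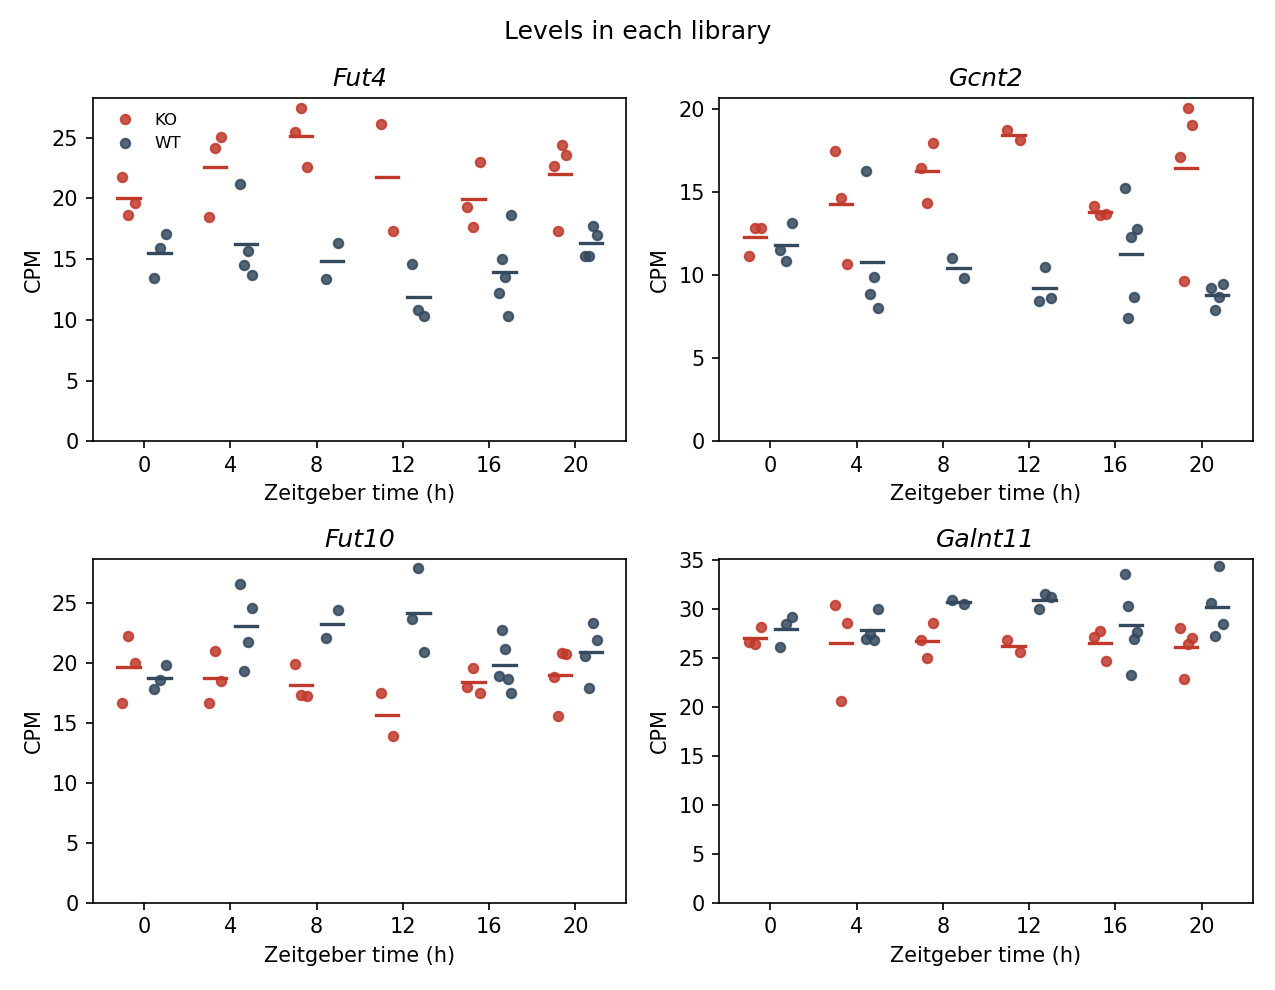
Levels of Fut4, Gcnt2, Fut10 and Galnt11 in every library (CPM, axes from 0) by zeitgeber time, with KO (red) left of WT (dark blue) and a line at each group mean. The KO means of Fut4 and Gcnt2 are above the WT means at every time, and those of Galnt11 below them, while for Fut10 the KO mean is above the WT mean at ZT0.

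Fut9, a second α1,3-fucosyltransferase of Lewis x synthesis (chromosome 4, 25609333 to 25800003, minus strand), was more even among KO than among WT libraries. Its level was 152, 184 and 144 CPM in KO against 59.3, 89.3 and 52.7 CPM in WT libraries at ZT0, and 126.5, 169 and 129 CPM in KO against 163, 105, 95.6 and 83.6 CPM in WT at ZT4. At ZT8 it was 162, 167 and 185 CPM in KO against 46.7 and 0.611 CPM in WT, and at ZT12 it was 185 and 72.4 CPM in KO against 57.8, 102 and 140.0 CPM in WT. The KO libraries were above all WT libraries at ZT0 and ZT8, and the groups overlapped at ZT4 and ZT12. At ZT16 it was 112, 137 and 120.3 CPM in KO against 182, 110.4, 19.9, 89.2 and 0.240 CPM in WT, and at ZT20 it was 118, 138, 177 and 153 CPM in KO against 21.6, 0.133, 26.9 and 3.16 CPM in WT. At ZT20 the KO libraries were again above all WT libraries, and at ZT16 the highest library was a WT library. Over all times 17 of 18 KO libraries were at 100 CPM or more, while of the WT libraries 6 were at 100 CPM or more, 7 at 50 to 100, 4 at 5 to 50 and 4 below 5 CPM.

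Over all times Fut9 ranged from 72.4 CPM through a median of 148 to 185 CPM in KO and from 0.133 CPM through a median of 59.3 to 182 CPM in WT. The means were 146 ± 30.3 CPM in KO and 69.02 ± 54.1 CPM in WT (SD), and the log2 fold change of 1.49 ± 0.51 did not pass the test (adjusted p = 0.0677, edgeR). It did not pass under 7 of 10 alternatives, which gave fold changes from 1.08 to 1.69 and adjusted p-values up to 0.406, or in 37 of the 39 fits without 1 library. It passed with DESeq2 as the test (adjusted p = 0.0138), in edgeR with genes filtered at a mean of 1 CPM (0.0462), without the 3 samples of unclear time (0.0421), and without WT ZT16 replicate 1 (0.0408) or WT ZT16 replicate 5 (0.0421). The SD of log2 CPM within the groups of a time was 0.33 in KO and 2.75 in WT, the WT value being above that of 99.6% of all genes with at least 1 CPM. The 4 WT libraries below 5 CPM (ZT8 replicate 2, ZT16 replicate 5 and ZT20 replicates 2 and 4) held Fut4 at 16.3, 18.6, 15.2 and 17.0 CPM, within the range of the other WT libraries. Of 7 tested genes within 2 Mb of Fut9, 0 were called higher, and 2 lower: Klhl32 (-0.23 ± 0.07) and Ndufaf4 (-0.17 ± 0.05). Among all genes 3.58% were called higher and 4.11% lower.

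Among the remaining fucosyltransferases, Fut8, which adds the core fucose of N-glycans, averaged 34.4 ± 4.32 CPM in KO and 31.8 ± 3.80 CPM in WT (SD; log2 fold change 0.12 ± 0.05, adjusted p = 0.183, edgeR). Fut2, which makes the H antigen on chain ends, averaged 7.89 ± 2.19 CPM in KO and 6.07 ± 2.16 CPM in WT (0.35 ± 0.15, adjusted p = 0.172). Fut1, with the same linkage, averaged 0.554 ± 0.353 CPM in KO and 0.728 ± 0.273 CPM in WT (-0.54 ± 0.26, adjusted p = 0.232). None of these passed the test. The sialyltransferase nearest to the threshold was St8sia4, which makes polysialic acid, at 21.2 ± 3.94 CPM in KO and 17.8 ± 4.28 CPM in WT (0.26 ± 0.10, adjusted p = 0.0924). It was called when WT ZT4 replicate 1, KO ZT16 replicate 3 or WT ZT20 replicate 3 was left out.

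Some members varied between libraries together with lymphoid markers, in both genotypes. St8sia1, which makes the ganglioside GD3, was at 0.406 to 11.3 CPM (median 2.38) in the 12 libraries of highest lymphoid marker score and at 0 to 1.02 CPM (median 0.145) in the other 27. Galnt6, an initiating enzyme, was at 4.39 to 23.4 CPM (median 10.7) in the 12 and at 0.336 to 12.3 CPM (median 2.50) in the 27, and Mgat3, which adds the bisecting GlcNAc of N-glycans, at 3.12 to 17.1 CPM (median 8.18) and 0.854 to 9.95 CPM (median 2.61). These 3 members were picked after their values were seen, so no test is given. By genotype, Galnt6 averaged 7.68 ± 6.01 CPM in KO and 4.22 ± 4.66 CPM in WT (SD; log2 fold change 1.17 ± 0.47, adjusted p = 0.131, edgeR), and St8sia1 averaged 1.80 ± 2.89 CPM in KO and 1.43 ± 3.28 CPM in WT (1.74 ± 0.87, adjusted p = 0.250). Neither passed; all 18 KO libraries held more Galnt6 than the WT median, and the part of lymphoid tissue in these values was not tested. The mean lymphoid score was -0.25 ± 1.91 in KO and -1.11 ± 2.54 in WT libraries (mean log2 CPM, SD; two-sided permutation p = 0.248), and the lymphoid markers Rag1 and Cd8a were at 0 in some libraries.

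**Figure D5:**
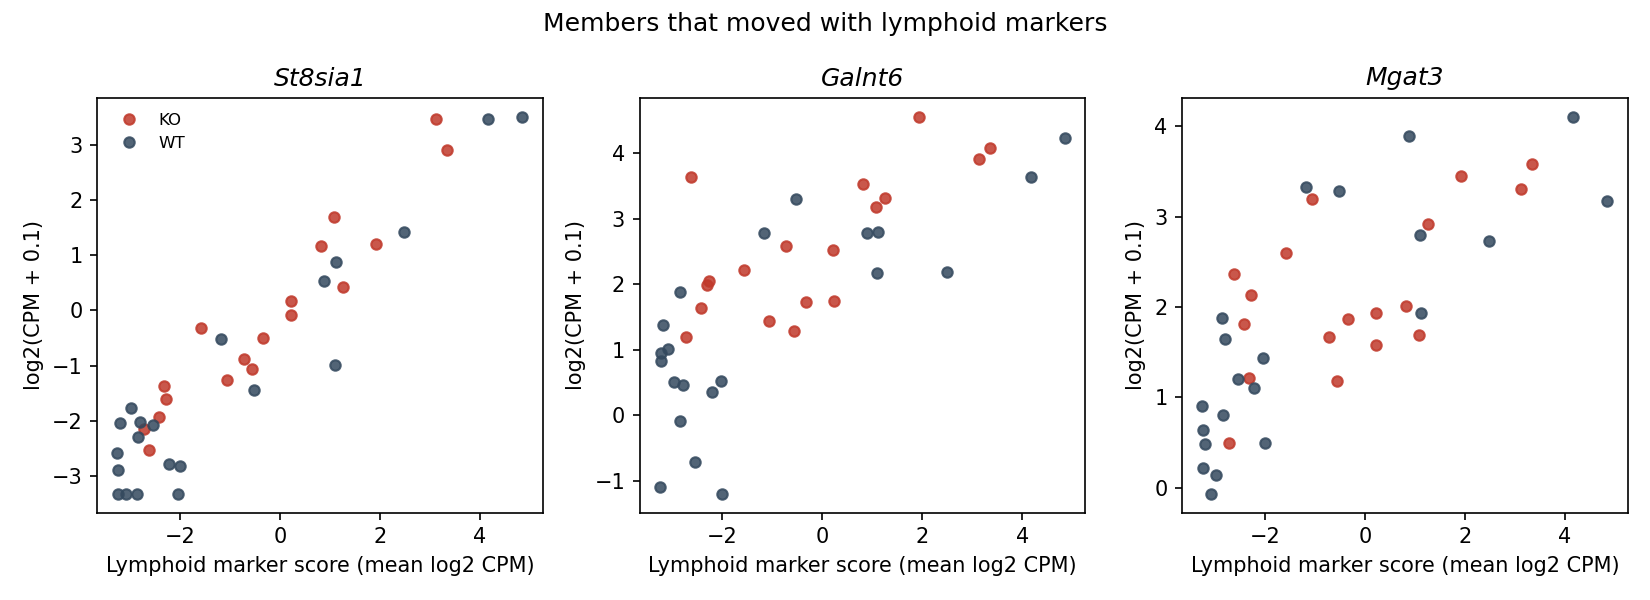
Levels of St8sia1, Galnt6 and Mgat3 as log2(CPM + 0.1) against the lymphoid marker score (mean log2 CPM of 15 genes) in 39 libraries, KO in red and WT in dark blue. Libraries with a high score had high levels of these members in both genotypes, and Galnt6 was spread from 0.336 to 12.3 CPM among the 27 libraries of lower score.

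At single times, 2 contrasts of the 76 members passed the test, both at ZT20, where 0.89% of all genes were called. Over the 6 times it was 0.238% of all contrasts. At an unadjusted p under 0.05 there were 12 of the 76 members at ZT20, beside 18.4% of all genes. Gcnt7, of the same family as Gcnt4, was at 1.95, 3.31, 2.37 and 2.21 CPM in KO against 1.31, 0.908, 0.665 and 0.651 CPM in WT at ZT20 (log2 fold change 1.47 ± 0.33, adjusted p = 0.0262, edgeR). The groups did not overlap at this time, whereas at ZT0 Gcnt7 was at 2.31, 2.61 and 2.71 CPM in KO against 3.59, 2.31 and 1.77 CPM in WT. With times taken from the other label, the ZT20 fold change was 0.89 with an adjusted p of 0.268. Gcnt2 at ZT20 was at 17.1, 9.62, 20.0 and 19.0 CPM in KO against 9.22, 7.91, 8.68 and 9.50 CPM in WT (0.90 ± 0.21, adjusted p = 0.0295); all 4 KO libraries were above the WT libraries, the lowest of them by little. Neither call held throughout when each of the 8 ZT20 libraries was left out in turn (chosen after seeing the data). Gcnt2 passed only without KO replicate 2 (fold changes 0.79 to 1.07, adjusted p from 0.00732 to 0.107). Gcnt7 was lost without KO replicate 2 or WT replicate 2, 3 or 4 (1.28 to 1.71, adjusted p from 0.0178 to 0.114). In these fits the single-time calls over all genes ranged from 123 to 389, against 267 in the main fit. At ZT0, ZT4, ZT8, ZT12 and ZT16, where 0.0643%, 0.075%, 0.0589%, 0.161% and 0.182% of all genes were called, no member was called, and 3, 4, 9, 9 and 8 of the 76 members had an unadjusted p under 0.05, where all genes had shares of 5.67%, 4.04%, 7.76%, 8.42% and 7.81%.

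Time of day was tested as a cosine of 24 h within each genotype, which the choice of the family had not used. No member was called in KO (73 tested, background 0.0779% of 17969 genes) or in WT (74 tested, background 0.248% of 18131 genes), and no member passed the test of a difference in rhythm between KO and WT (78 tested, background 0.0161% of 18661 genes). At an unadjusted p under 0.05 there were 5 members in KO, 7 in WT and 3 for the difference, where all genes had shares of 8.27% in KO, 14.9% in WT and 3.69% for the difference. DESeq2 called 0 members in each of these tests as well. The lowest adjusted p was 0.353 in KO, for B4galt2, a β1,4-galactosyltransferase, with an amplitude (mean to peak, log2 scale) of 0.20 ± 0.05 and a peak at ZT 4.49 in KO, and of 0.19 ± 0.08 with a peak at ZT 3.87 in WT. In WT the lowest was 0.212, for St6galnac1, a sialyltransferase of O-glycans that averaged 0.0326 CPM in KO and 0.0797 CPM in WT. Galntl6 had amplitudes of 0.41 ± 0.37 in KO and 0.56 ± 0.25 in WT (peak ZT 10.3), and Gcnt4 of 0.22 ± 0.44 in KO and 0.50 ± 0.25 in WT (peak ZT 17.9). These amplitudes moved with single libraries: leaving out 1 library gave 0.198 to 0.665 in KO and 0.429 to 0.741 in WT for Galntl6, and 0.0442 to 0.423 in KO and 0.363 to 0.691 in WT for Gcnt4. For 71 members tested in both genotypes the median amplitude was 0.131 in KO and 0.199 in WT, beside 0.115 in KO and 0.133 in WT over all 17639 such genes.

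Other genes of the glycan pathway, from a list of donor sugar synthesis and transport, precursor assembly, oligosaccharide transfer, trimming and further transferases, included 94 that could be tested. Of these, 5 were higher (5.32%, beside 3.58% of all genes) and 6 lower in KO (6.38%, beside 4.11%), with a median log2 fold change of -0.03. At an unadjusted p under 0.05 there were 29 of the 94, or 30.9%, beside 21.1% of all genes. Lower in KO were Edem2, which trims mannose from misfolded glycoproteins (55.5 ± 5.23 CPM in KO and 64.7 ± 4.89 CPM in WT, SD; -0.22 ± 0.04, adjusted p = 1.75e-04, edgeR), and B3galnt1, which makes the globoside end of glycolipids (14.2 ± 3.08 CPM in KO and 21.1 ± 6.22 CPM in WT; -0.54 ± 0.11, adjusted p = 8.67e-04). Alg1, an early mannosyltransferase of the lipid-linked precursor, averaged 18.0 ± 3.23 CPM in KO and 22.4 ± 2.82 CPM in WT (-0.31 ± 0.07, adjusted p = 0.00267). Ddost, a subunit of the oligosaccharyltransferase that hands the precursor to the protein, averaged 233 ± 24.4 CPM in KO and 268 ± 25.8 CPM in WT (-0.20 ± 0.05, adjusted p = 0.00405).

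The Golgi mannosidase genes Man1c1 and Man2a2 were higher in KO. Man1c1 averaged 17.1 ± 2.25 CPM in KO and 13.2 ± 2.29 CPM in WT (SD; log2 fold change 0.35 ± 0.07, adjusted p = 7.66e-04, edgeR), and Man2a2 averaged 135 ± 15.0 CPM in KO and 115 ± 12.4 CPM in WT (0.24 ± 0.05, adjusted p = 0.00213). By step, 2 of 12 oligosaccharyltransferase genes, 1 of 24 genes of donor synthesis and 1 of 22 genes of precursor assembly were called lower. Of 11 further transferases 2 were called higher and 1 lower. Among all genes 3.58% were called higher and 4.11% lower. Counting also those that did not pass the test, 12 of the 12 and 20 of the 24 had a negative fold change, beside 49.7% of all genes. So had 16 of 22 genes of precursor assembly, 5 of 10 transporters, 5 of 15 trimming genes and 4 of 11 further transferases. The median of the 12 was -0.09, and these counts were not tested. With DESeq2's size factors the counts of the 12 and the 24 were the same. That scaling moved the median over all genes little, to 0.00286 from 0.00098. Trimming genes were mixed, with 3 called higher and 1 lower of 15, and of 10 nucleotide sugar transporters 0 were called by edgeR, with 0 at an unadjusted p under 0.05. Without the 12 lymphoid-rich libraries 1 gene of the list was called higher and 2 lower. Over all genes that fit called 454 of 18766, against 1435 of 18661 in the main fit.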

How the data were processed

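Total RNA of pooled parathyroid glands was sequenced after ribosomal RNA depletion with a stranded kit, per the labels' protocols. The authors deposited raw gene counts per Entrez ID. Tools listed in the submitters' processing notes, with no role given, are featureCounts 2.0.1, STAR 2.7.8a and DESeq2 1.30.1, and the build is mm10; which annotation was counted, and whether by strand, is not given in the sources used here. Even numbers made up 89.6% of the counts between 1 and 10, a sign that the mates of a read pair were counted one by one.

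Symbols were matched through RefSeq on GRCm38.p6 (25275 IDs, 98.0% of counts), and exon lengths and overlaps came from GENCODE M21. The test was the robust quasi-likelihood fit of edgeR 4.0.16 (R 4.3.3) after TMM scaling and filterByExpr by group; p-values were adjusted by Benjamini-Hochberg over every gene tested, with a threshold of 0.05. Time was a factor in the genotype fit. Single times were contrasts of 12 group means, and rhythms used cosine terms of 24 h. Amplitudes are least squares values (log2 CPM, prior count 2). Marker scores were permuted 100000 times. Steps were tested on simulated counts.

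Genes named by rule were those that chose the family, members past a threshold and Arntl. The rule also took the 2 members of highest level per length in each role. It took as well the 6 pathway genes of smallest p among those called. Other genes named above, among them Fut8, Fut2, Fut1, Galnt6, St8sia4 and neighbours such as Mfap3l and Piwil4, fall outside this rule. Members, lists and tests were chosen with earlier results of these data known. P-values measure the spread between pools of 2 mice; whether samples were collected on separate days is not given in the sources used here. DESeq2 1.42.0 was among the alternatives given at the end.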

Additional observations from a re-analysis of the deposited data

Results flagged for a closer look

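Galntl6 in KO ZT20 replicate 4 was at 2.83 CPM, apart from the other 3 KO libraries of that time, which lay at 1.19 to 1.45 CPM. It was the 1 group that stood out among 36 groups of 4 or 5 libraries examined for 9 named members. Chance alone sets apart about 1 group in 20.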

How the results depend on the processing

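The fold changes by genotype followed across alternatives were those of 8 members (Gcnt4, Galntl6, Fut4, Fut9, Fut10, Gcnt2, Galnt6 and Galnt11) and 6 pathway genes (Edem2, B3galnt1, Alg1, Ddost, Man1c1 and Man2a2); none of these turned round under any of the alternatives or when any 1 library was left out. Gcnt4 had log2 fold changes of 1.84 to 2.18 over 10 alternatives and Galntl6 of -2.11 to -1.76. Fut4 passed in all 10 and in all 39 fits without 1 library. Main counts were 2 members higher and 2 lower in KO, and 5 pathway genes higher and 6 lower. With DESeq2 4 members were higher (Fut9 and Galnt6 added) and 10 pathway genes lower. With 4 tissue scores (thyroid, lymphoid, muscle and fat) as covariates 4 members were higher (B4galt2 and Gcnt7 added), 2 lower (Galnt11 lost, Galnt15 added) and 11 pathway genes lower. Without the 12 lymphoid-rich libraries 1 member (Fut4) was higher and 0 lower, and 1 pathway gene was higher and 2 lower, with fewer samples. Calls over all genes moved too, from 1435 of 18661 in the main fit. They were 1819 of 18661 with DESeq2, 1972 of 18661 with the tissue scores and 454 of 18766 without the lymphoid-rich libraries. Members called lower numbered 1 (Fut10) with no low-count filter, with times from the zeitgebertime label, without the 3 samples of unclear time and under the replicate block. In the same order, these fits called 1325 of 23156, 1346 of 18661, 1500 of 18542 and 1271 of 18661 genes. Contrasts at single times numbered 1 with the zeitgebertime label, against 2. Over all genes such contrasts numbered 136 of 111966, against 267. Leaving out 1 library gave 2 to 3 members higher and 1 to 3 lower, 5 to 6 pathway genes higher and 5 to 11 lower (11 without WT ZT8 replicate 2), and 0 to 1 contrasts at single times over the 8 ZT20 libraries. By genotype, those fits called from 1125 genes (without WT ZT8 replicate 1) to 1735 genes (without KO ZT4 replicate 1) over all genes. Rhythm calls stayed at 0 in every fit. The amplitude of Galntl6 ranged over 6 alternatives from 0.325 to 0.767 in KO and from 0.316 to 0.970 in WT, and that of Gcnt4 from 0.0845 to 0.730 in KO and from 0.410 to 0.673 in WT.

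The main fits did not pair samples by the replicate numbers in the titles, and whether these numbers mark pairs was not settled. For 17 pairs of KO and WT samples of the same time and number, deviations from the group means correlated at -0.29 to 0.51 (median 0.075). Of these, 8 were above 0.1. For 47 pairs of the same time and different number the correlations were -0.437 to 0.373 (median -0.0442), with 14 above 0.1. With the replicate block the call of Galnt11 was lost (-0.14, adjusted p = 0.0538), and no other call among these genes changed. Differences of members under about 1 CPM had standard errors up to 1.18 on the log2 scale. The causes of these changes were not tested.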
